A study of Rattus norvegicus with 6 samples.

Results

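Reg genes encode small secreted proteins built around a C-type lectin fold, and 4 of them were measured in AR42J cells with and without dexamethasone. They were Reg1a (lithostathine, the pancreatic stone protein) and the 3 genes of the pancreatitis-associated proteins, Reg3b (PAP I), Reg3a (PAP II) and Reg3g (PAP III). A probe set belonged to the group if the platform annotation named it for 1 of these genes alone, which gave 4 probe sets, 1 per gene, of 15866 on the array, or 4 of 10411 genes with a probe set of their own. AR42J is a line from a rat tumour of the exocrine pancreas. The study had 3 control cultures in medium with 5% serum and no added dexamethasone, and 3 cultures in the same medium with 100 nM dexamethasone, a synthetic glucocorticoid, for 48 h. All 6 cultures had been thawed at passage 29 and plated for 24 h in 20% serum, and each was read on its own Affymetrix Rat 230A array. The line is a single tumour line, and the protocols name no cytokine and no second hormone.

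In the healthy pancreas acinar cells make lithostathine and release it into pancreatic juice with the digestive enzymes. The PAP genes are known for their low expression in the resting gland and their sharp induction in acute pancreatitis, and several Reg3 proteins bind and kill bacteria, a role best known in the gut. PAP transcription in acinar cells is known to respond to cytokines of the interleukin 6 family, which signal through the shared receptor chain gp130 (Il6st), Janus kinases and the transcription factor STAT3, and glucocorticoids are known to modify that response.

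The 4 genes lie side by side. In the RefSeq gene table of the rat assembly GRCr8 they stand on chromosome 4 in the order Reg3b, Reg3a, Reg1a and Reg3g, and the only other annotated genes between them are the pseudogene Reg3b-ps1 and the long non-coding RNA LOC102556035. Each window below runs from 250 bases before to 50 bases after the annotated start, and all 4 genes had 1 (Reg3a had 2 starts, and its first is shown). They are shown because neighbouring relatives with different signals may differ in the letters near the start. Capitals mark matches on either strand to a STAT motif (TTCNNNGAA), an interleukin 6 response core (CTGGGA) and a TATA box (TATAAA), and capitals would also mark the glucocorticoid receptor half-site AGAACA, which was in none of the 4 windows. The windows are chr4:112450216-112450515 (plus strand), chr4:112419526-112419825 (plus), chr4:112430147-112430446 (plus) and chr4:112484689-112484988 (minus strand), all from RefSeq on GRCr8.
Reg1a: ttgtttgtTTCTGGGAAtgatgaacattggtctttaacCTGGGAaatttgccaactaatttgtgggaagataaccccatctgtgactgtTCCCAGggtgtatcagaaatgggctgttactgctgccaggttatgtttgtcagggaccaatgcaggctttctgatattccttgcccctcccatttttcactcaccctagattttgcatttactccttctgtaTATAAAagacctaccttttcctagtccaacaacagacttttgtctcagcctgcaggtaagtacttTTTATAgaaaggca
Reg3b: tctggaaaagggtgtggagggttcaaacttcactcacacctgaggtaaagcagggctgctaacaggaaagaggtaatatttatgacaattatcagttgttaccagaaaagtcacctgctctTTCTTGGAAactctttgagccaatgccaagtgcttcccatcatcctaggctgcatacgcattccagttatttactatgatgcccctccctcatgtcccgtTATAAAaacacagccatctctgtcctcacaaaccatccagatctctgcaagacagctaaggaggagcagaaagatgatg
Reg3a: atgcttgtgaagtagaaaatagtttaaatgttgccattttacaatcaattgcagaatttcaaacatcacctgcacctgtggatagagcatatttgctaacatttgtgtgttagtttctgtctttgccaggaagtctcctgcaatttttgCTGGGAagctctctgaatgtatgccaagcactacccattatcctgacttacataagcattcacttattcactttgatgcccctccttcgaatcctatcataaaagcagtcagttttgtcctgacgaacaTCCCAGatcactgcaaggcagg
Reg3g: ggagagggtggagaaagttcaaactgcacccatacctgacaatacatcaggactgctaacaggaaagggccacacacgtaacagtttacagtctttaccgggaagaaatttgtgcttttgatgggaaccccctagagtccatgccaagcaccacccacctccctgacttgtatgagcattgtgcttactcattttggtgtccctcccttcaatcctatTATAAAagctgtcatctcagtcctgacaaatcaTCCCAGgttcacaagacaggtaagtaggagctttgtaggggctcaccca

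A STAT motif was found in the windows of Reg1a, at position -242 from the start, and Reg3b, at position -129, and not in those of Reg3a and Reg3g. Among 33469 RefSeq promoter windows of the same length, 8.87% held this motif. The interleukin 6 core occurred 3 times in Reg1a (the copy at position -240 lies inside the STAT match), 2 times in Reg3a, 1 time in Reg3g and 0 times in Reg3b, against 30.3% of all windows with at least 1 copy. A TATA box stood at position -29 in Reg1a and Reg3b and at position -32 in Reg3g, where 14.2% of all windows held one anywhere, while the Reg3a window had no match to these letters. The full palindrome of the glucocorticoid response element (in 0.0149% of all windows) was in none of the 4 either, and its half-site was in 20.7% of all windows. E-boxes (CANNTG), the letters bound by basic helix-loop-helix factors, numbered 4 in Reg3b, 4 in Reg3a, 1 in Reg1a and 0 in Reg3g, and 72.1% of all windows had at least 1. The TC-box letters of PTF1, an acinar transcription factor (TTTCCC, in 25.1% of all windows), matched 1 time, in Reg1a, where the match overlaps an interleukin 6 core. A C/EBP motif (TTNNGCAA, 10.6% of all windows) matched 1 time, in Reg3a. Of aligned bases, 69.4% to 73.3% were identical between the windows of Reg3b, Reg3a and Reg3g, and 65.4% to 69.3% between each of them and Reg1a. Reg4 is a further Reg gene whose expression was not analysed here. Its window shared 60.9% to 66.1% of aligned bases with the 4, a range that the Reg1a values overlap. The aligned length differed between pairs, from 192 bases (Reg1a and Reg4) to 288 (Reg3b and Reg3g). Counted over the whole window of 300 bases, the ranges did not overlap. Reg1a shared 165 to 172 identical bases with the Reg3 genes, and Reg4 shared 127 to 162 with the 4. Such matches describe the letters in these windows and do not show binding.

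**Figure D1:**
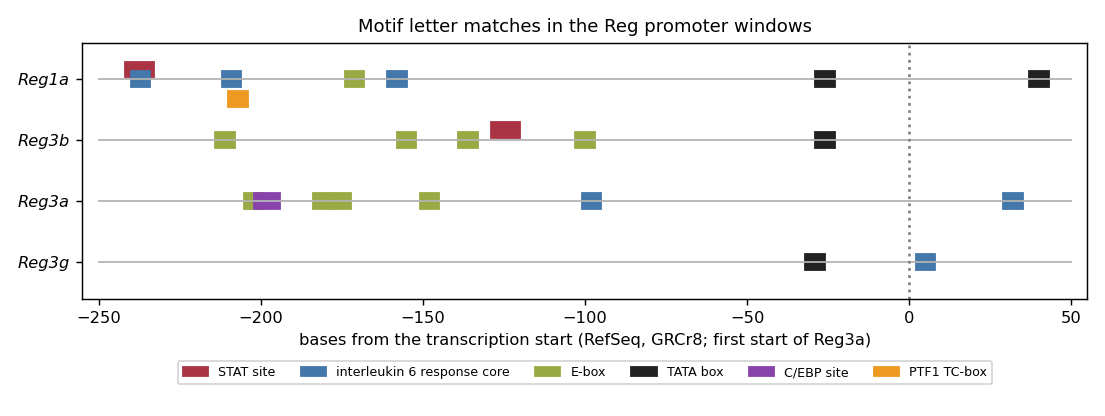
Positions of motif matches (coloured boxes, both strands) in the 4 Reg promoter windows, in bases from the annotated transcription start (dotted line). The red STAT boxes appear in Reg1a and Reg3b alone, and a TATA box (black) lies just before the start in Reg1a, Reg3b and Reg3g.

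Signals are MAS5 values on a linear scale, each array having been scaled to a trimmed mean of about 500. Probe sets were read against a background level per array, taken as the brightest of the 27 probe sets made against bacterial (Bacillus subtilis) transcripts, and this level was 51.7 to 97.3 on control arrays and 83.7 to 115.9 on treated ones. Of the 9 acinar markers on the array, all were above it on all 6 arrays, with summed signals of 80211 to 94942 in controls and 101882 to 115247 with dexamethasone. Markers of other cells were above it on all arrays in 3 of 3 cases for duct, 4 of 6 for gut epithelium, 4 of 6 for stroma, 3 of 5 for hepatocytes, 1 of 6 for islets and 0 of 6 for immune cells. The glucocorticoid-responsive gene Fkbp5 went from 455.0 ± 7.9 to 2958 ± 397 (mean ± SD, n = 3). On the second principal component of the arrays, which held 10.0% of the variance, dexamethasone 3 lay apart from the other 2 treated arrays (25.3 against -11.6 and -12.6). The ratio of 3' to 5' signal, a sign of RNA integrity, was 0.973 to 1.07 for GAPDH and 1.19 to 1.69 for beta-actin over the 6 arrays. In arrays of whole cultures, fewer cells expressing a gene and less of its RNA per cell cannot be told apart, and the 3 arrays in each group limit the precision.

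Dexamethasone lowered Reg3b and left no detectable rise in any Reg gene. Reg3b fell to 0.438 of its control level, and Reg1a, at 0.722, did not pass the test with the deposited scaling. Reg3a and Reg3g stayed near the background level in both groups.

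Reg1a (probe set 1368629_at), the stone protein gene, had signals of 9809, 11135 and 8965 in the control cultures, in order of replicate number, and 10743, 6981 and 4923 in the treated ones. All 6 values were far above background, from 42.5 to 180 times that array's level. The groups overlapped, since dexamethasone 1 was above 2 of the 3 controls while the other 2 treated cultures were below all of them. The mean went from 9970 ± 1094 to 7549 ± 2951 (SD, n = 3). In the pairs of like replicate number the log2 change (dexamethasone minus control) was 0.13, -0.67 and -0.86. The fitted change was -0.47 ± 0.17 (SE; 95% interval -0.85 to -0.08), with an unadjusted p of 0.0224 and an adjusted p of 0.058 by limma with Benjamini-Hochberg adjustment over 9520 probe sets. This missed the threshold of 0.05, and the interval runs from a fold of 0.553 to 0.943.

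The call for Reg1a depended on how arrays were set against each other. Quantile normalization made it pass (-0.71 ± 0.14, adjusted p = 0.00513 by limma), as did scaling to the hybridization controls (-0.71 ± 0.16, adjusted p = 0.00696), whereas with centring on the 75th percentile it was -0.34 (adjusted p = 0.155). Without replicate pair 1 it was also past the threshold, at -0.77 (adjusted p = 0.00373), and without replicate 3 it was -0.27. The direction was lower in all 17 settings, and 4 of them passed.

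Reg3b (probe set 1368238_at), the PAP I gene, had signals of 570.9, 485.2 and 424.2 in controls and 418.5, 176.8 and 133.3 with dexamethasone. The groups did not overlap, although dexamethasone 1 lay just under control 3. Over background the controls stood at 4.99 to 10.5 times the array's level, and the treated arrays at 4.18, 2.11 and 1.15 times, so dexamethasone 3 was barely above it. The mean went from 493.4 ± 73.7 to 242.9 ± 154. The log2 change was -0.45, -1.46 and -1.67 in pairs 1 to 3, lower in 3 of 3. The fitted change was -1.19 ± 0.24 (95% interval -1.74 to -0.65), a fold of 0.438 (0.300 to 0.639), with an adjusted p of 0.00498 by limma.

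Thus 1 of the 2 Reg probe sets tested was called lower, in a data set where limma called 37.1% of the 9520 probe sets tested, 21.2% as lower and 15.9% as higher. The 2 groups did not overlap for 49.7% of probe sets tested, with the treated arrays below for 27.8%, and a called fall of at least 2-fold for 6.61%. A lower call was therefore common on these arrays, and one of at least 2-fold less so. The fit without the replicate block also called Reg3b (adjusted p = 0.0253) and did not call Reg1a (adjusted p = 0.139). Leaving out replicate pair 2 left Reg3b just short of the threshold (-1.06 ± 0.31, adjusted p = 0.0518 by limma). In the fit without pairs, leaving out control 1, control 2, dexamethasone 2 or dexamethasone 3 also ended its call, with adjusted p-values of 0.0836, 0.0639, 0.0862 and 0.0566, and its change without dexamethasone 3 was -0.85.

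**Figure D2:**
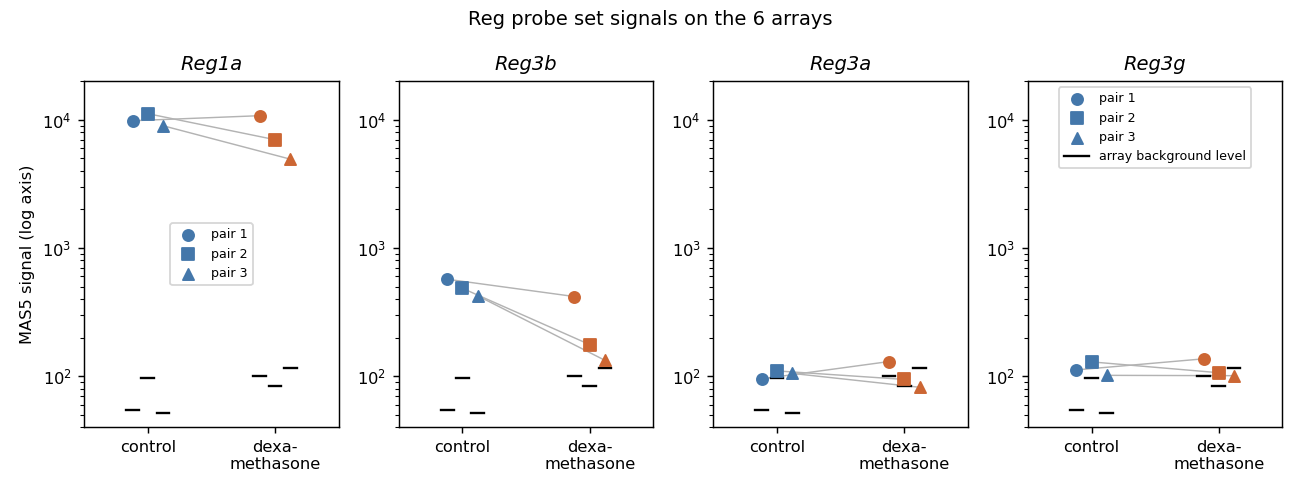
MAS5 signal (log axis) of the 4 Reg probe sets in control (blue) and dexamethasone (orange) cultures, with grey lines joining arrays of 1 replicate number and black bars for each array's background level. Reg3b falls in all 3 pairs, Reg1a falls in pairs 2 and 3, and Reg3a and Reg3g lie around the background bars.

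Reg3a (probe set 1387930_at), the PAP II gene, had signals of 95.6, 110.2 and 105.4 in controls and 130.4, 94.6 and 82.2 with dexamethasone. It was above background on 5 of 6 arrays, by a factor of at most 2.04, and below it in dexamethasone 3. Reg3g (probe set 1370631_at), the PAP III gene, had signals of 112.2, 129.6 and 101.8 in controls and 136.9, 106.7 and 101.2 with dexamethasone, with the same 5 of 6 arrays above background, by at most 2.06 times. The treated and control values overlapped for both genes.

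Both lay under the filter for dim probe sets (a mean signal of 147.6, on the log2 scale), so 2 of the 4 members entered the main test. A limma fit with no filter gave a log2 change of -0.04 ± 0.31 for Reg3a (95% interval -0.77 to 0.68, adjusted p = 0.942) and of 0.00 ± 0.28 for Reg3g (-0.65 to 0.65, adjusted p = 0.999). In that fit 20.9% of 15866 probe sets were called, 12.2% as lower and 8.65% as higher, and of the Reg genes only Reg3b was (adjusted p = 0.0172). The intervals leave room for a fold of 0.588 to 1.60 in Reg3a and 0.636 to 1.57 in Reg3g, so smaller changes could not have been seen.

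The treated cultures differed more among themselves than the controls did. For Reg3b the highest treated signal was 3.14 times the lowest, against 1.35 times among controls, and for Reg1a the figures were 2.18 and 1.24. On the log2 scale the SD over treated arrays was 0.86 for Reg3b, a spread that 1.01% of probe sets tested exceeded, and 0.56 for Reg1a, exceeded by 4.52%. Among controls the SDs were 0.21 and 0.16, exceeded by 27.7% and 45.9%. In Reg3a the treated signals spanned 1.59-fold and in Reg3g 1.35-fold.

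In Reg1a and Reg3b dexamethasone 1 was the highest treated array and dexamethasone 3 the lowest. Reg3a and Reg3g had the same order by value. Their treated signals were at most 1.37 times background and under it in dexamethasone 3, so no order is read from them. That order was found in 14.7% of all probe sets and 16.5% of those tested. Pair 1 accordingly showed the smallest fall of Reg3b and a change of 0.13 in Reg1a. The pair 1 changes of 0.45 in Reg3a and 0.29 in Reg3g rest on signals near background. The change of Reg3b minus that of Reg1a was -0.58, -0.78 and -0.81 in pairs 1 to 3, so the change was lower in Reg3b than in Reg1a in 3 of 3 pairs. With 3 pairs an exact sign test of that difference could not pass 0.05, and none was run. In dexamethasone 1 to 3 the 3' to 5' ratios for GAPDH were 1.071, 0.989 and 0.973, the order of the Reg1a and Reg3b signals. For beta-actin they were 1.46, 1.19 and 1.69, another order. The part of RNA quality in the Reg order was not tested.

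**Figure D3:**
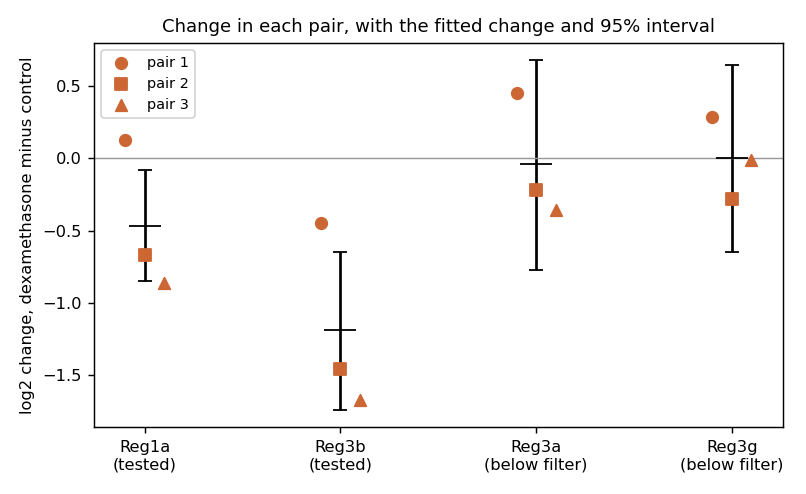
Log2 change (dexamethasone minus control) of each Reg gene in the 3 pairs (orange symbols), with the fitted change and its 95% interval (black). Pair 1 lies above pairs 2 and 3 in every gene, although Reg3a and Reg3g are near background. The interval of Reg3b, from -1.74 to -0.65, is the one farthest from 0.

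**Figure D4:**
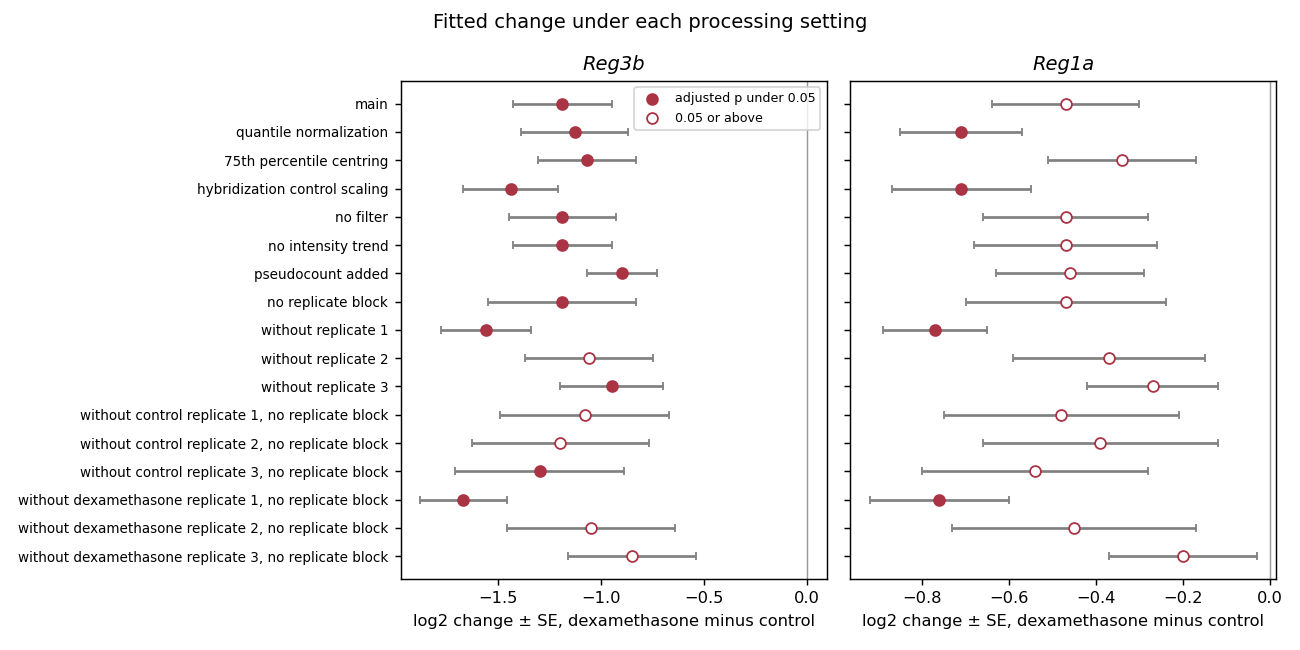
Fitted log2 change ± SE of Reg3b and Reg1a under each processing setting, with filled circles where the adjusted p was under 0.05. All values are below 0, 12 of 17 pass for Reg3b and 4 of 17 for Reg1a.

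Genes whose profile over the 6 arrays was nearest to each Reg gene were found by Euclidean distance of log2 signals centred on each gene's own mean, over the 7051 genes tested. Nearest to Reg1a were Trappc4, a subunit of a vesicle-tethering complex, Eno1, the glycolytic enolase, Sdc1, a heparan sulfate proteoglycan of the cell surface, Plod1, a collagen lysyl hydroxylase, and Ppp1r37, at distances of 0.28 to 0.34. Eno1, for example, had signals of 11134, 13137 and 11517 in controls and 10528, 8729 and 5942 with dexamethasone. Nearest to Reg3b were Cep128, a centriole protein gene, Slc16a3, a lactate transporter, the zinc finger genes Zfp414 and Zfp668, and Luzp1, at distances of 0.61 to 0.71. In dexamethasone 3, Cep128 (96.7), Zfp668 (54.7) and Luzp1 (73.2) were under the background level of 115.9. Zfp668 was also under background in dexamethasone 2. The nearness of Cep128, Zfp668 and Luzp1 to Reg3b thus rests in part on signals at background, which have no order. Slc16a3 had signals of 1865, 2142 and 1787 in controls and 1211, 888.6 and 470.0 with dexamethasone. Reg1a ranked 75th in nearness to Reg3b, at a distance of 1.05, and Reg3b ranked 2461st in nearness to Reg1a, so the shared order of arrays came with changes of unequal size.

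Among genes of interleukin 6 signalling whose mean over the 6 arrays was bright enough to be tested, Cebpb and Il11ra1 had the highest called rises. Most others did not pass. Il6r and Socs1, whose means were too dim for that test, are given after them. Of 49 listed genes of the interleukin 6 family, Janus kinases and STAT factors, 38 were on the array and 26 were tested. Of these 5 rose, 1 fell and 20 did not pass, and the median change was 0.10, beside 38.4% called (17.0% higher, 21.4% lower) and a median of -0.04 over all genes tested. With hybridization control scaling 4 rose and 4 fell and the median was -0.14, and with quantile normalization or 75th percentile centring none fell. None fell either without pair 1, pair 2, control 1 or dexamethasone 1, and 2 fell without pair 3 or dexamethasone 3 (single arrays left out in the fit without pairs). Over all probe sets of the list 6 were higher and 2 lower, the other faller being a second probe set of Pias4, a SUMO ligase of STAT factors (-0.85 ± 0.16, adjusted p = 0.00353 by limma), named after its values were seen, while the Pias4 set with the higher mean did not pass (0.08 ± 0.17, adjusted p = 0.757). The added riser, also named after its values were seen, was a second probe set of Mcl1 (0.70 ± 0.15, adjusted p = 0.00572 by limma). The Mcl1 set with the higher mean did not pass (0.19 ± 0.14, adjusted p = 0.317 by limma).

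None of Il6st, Stat3 and Socs3 passed. Il6st, the gp130 receptor chain, was at 763.5 ± 43.8 and 841.8 ± 111 (log2 change 0.13 ± 0.14, adjusted p = 0.481 by limma). Stat3, the factor it activates, was at 915.4 ± 48.2 and 837.4 ± 122 (-0.14 ± 0.13, adjusted p = 0.458). Socs3, the feedback inhibitor that STAT3 induces, was at 314.8 ± 18.4 and 273.1 ± 43.0 (-0.22 ± 0.19, adjusted p = 0.399). On these brightest probe sets, Il6st turned negative with hybridization control scaling (-0.11) and no scaling brought any of the 3 genes past the threshold. Il6st had 2 other probe sets tested, of opposite sign (-0.15 ± 0.16 and 0.40 ± 0.16), and Stat3 had 1 (-0.15 ± 0.21). None of these passed with the deposited scaling (adjusted p = 0.502, 0.0829 and 0.609 by limma). Il6 itself, named after its values were seen, was above background on no array.

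Among the 5 risers, Cebpb, a transcription factor that acts on acute phase genes, went from 101.0 ± 19.7 to 1445 ± 280 (log2 change 3.84 ± 0.17, adjusted p = 1.4e-06 by limma). Its control signals of 97.3, 122.3 and 83.4 were above background but under the filter level of 147.6. Cebpb thus entered the test through its treated signals, and the size of its change rests on dim controls. Il11ra1, the interleukin 11 receptor chain, rose from 304.9 ± 35.8 to 884.4 ± 120 (1.53 ± 0.15), and Stat2, an interferon signalling factor, from 293.8 ± 26.4 to 758.9 ± 65.1 (1.37 ± 0.15). Nfil3, a transcription repressor, rose by 0.77 ± 0.16 and Socs7 by 0.49 ± 0.15 (adjusted p = 0.0322), a call that was lost with hybridization control scaling (adjusted p = 0.286), while its other probe set did not pass. With 1 probe set per gene the faller was Ptpn2, a phosphatase that acts on Janus kinases and STAT proteins, at -0.51 ± 0.15 (adjusted p = 0.0299), which no longer passed after quantile normalization (0.0791) or 75th percentile centring (0.0769).

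The interleukin 6 receptor gene itself was removed by the filter because its controls were at background. Il6r had signals of 11.9, 1.8 and 24.4 in controls, all under background, and of 574.9, 610.6 and 481.0 with dexamethasone, all above it. It was at least 8.51-fold higher, and the limma fit with no filter called it (adjusted p = 0.00146). Socs1, a Janus kinase inhibitor named after its values were seen, showed the same pattern, with 6.3, 30.2 and 22.5 in controls and 375.4, 280.7 and 228.6 in treated cultures. Against background it was higher by at least 4.45-fold (adjusted p = 0.00267 by limma with no filter), but its second probe set was above background on none of the 6 arrays. Jak2 had signals of 91.3, 103.0 and 117.2 in controls, above background in all 3, and 35.8, 13.2 and 36.6 with dexamethasone, above it in none, and was at least 1.04-fold lower (adjusted p = 0.0193 by limma with no filter). Signals at background have no order, so these are bounds.

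**Figure D5:**
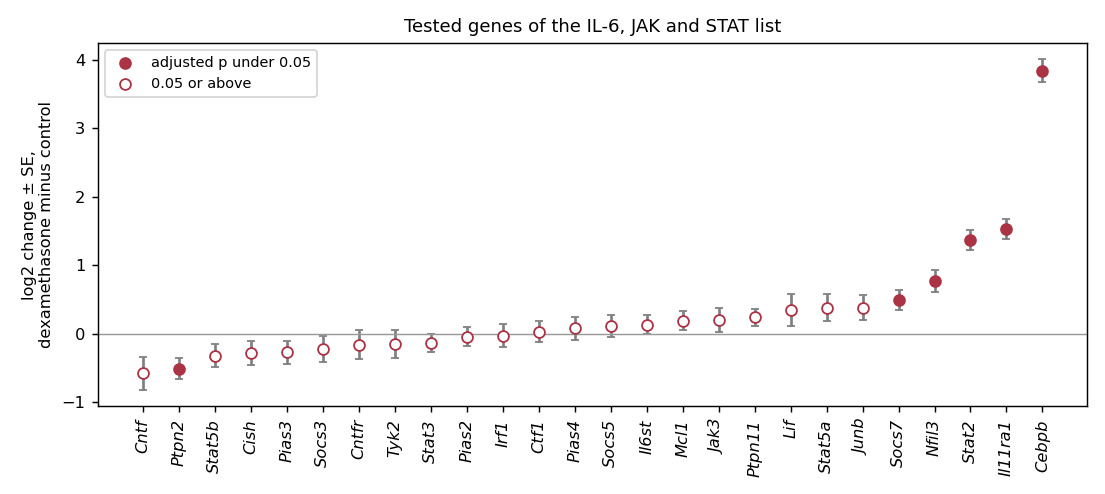
Log2 change ± SE (dexamethasone minus control) of the 26 tested genes of the interleukin 6, JAK and STAT list, filled where the adjusted p was under 0.05. Most genes, with Il6st, Stat3 and Socs3 among them, lie near 0, and Cebpb stands highest at 3.84.

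Other genes tied to pancreatitis moved in both directions while the PAP genes did not rise. Of 45 listed genes 41 were on the array and 23 were tested, of which 11 rose, 4 fell and 8 did not pass. Over all genes tested 17.0% were called higher and 21.4% lower. The list median was 0.40, or 0.15 with hybridization control scaling. Without pair 1 the risers numbered 7, and in the fit without pairs the fallers numbered 1 without control 1 and 1 without control 2. The median was 0.68 without control 2 and 0.63 without dexamethasone 3. Nfkbia, the inhibitor of NF-kB, rose from 232.2 ± 38.1 to 1332 ± 109 (log2 change 2.53 ± 0.17), Anxa2, a membrane-binding annexin, by 2.34 ± 0.14, and Nupr1, a stress factor gene first described in pancreatitis, from 1582 ± 246 to 7221 ± 1092 (2.19 ± 0.15, adjusted p = 1.2e-05 by limma). Gadd45a rose by 1.94 ± 0.14 and Mt2A, a metallothionein, by 1.83 ± 0.11. Spink1, the trypsin inhibitor of the pancreas, rose from 149.5 ± 19.1 to 260.8 ± 38.7 (0.80 ± 0.20, adjusted p = 0.0148) on its brightest probe set. Its other 2 probe sets were under background in all controls and above it in all treated cultures, and were at least 4.55-fold and at least 4.64-fold higher.

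The 4 fallers of this list were the keratins Krt19, Krt18 and Krt8 and the trefoil factor Tff2, a mucus-associated peptide. Krt19, also a marker of duct cells, had signals of 2658, 3176 and 2328 in controls and 1388, 1423 and 316.2 with dexamethasone (log2 change -1.66 ± 0.32, adjusted p = 0.00371 by limma). Tff2 fell from 1400 ± 439 to 481.0 ± 113 (-1.52 ± 0.19), Krt18 from 4429 ± 636 to 2508 ± 963 (-0.89 ± 0.16) and Krt8 by 0.40 ± 0.11, the last call being lost with 75th percentile centring (adjusted p = 0.0908). Of 6 duct markers 3 were on the array, all above background on every array. Krt19 and Krt7 fell with Reg3b, Krt7 by limma at -0.45 ± 0.15 (adjusted p = 0.0467), with overlapping groups. Muc1, the other marker, did not pass (0.09 ± 0.22, adjusted p = 0.766). The summed signal of the 3 was 2889 to 4026 in controls and 795.3 to 2131 with dexamethasone. The part of these markers in the fall of Reg3b was not tested.

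Genes of the hepatic acute phase rose or did not pass. Of 28 listed, 12 were tested and limma called 7 higher and 0 lower (0 lower at an unadjusted p under 0.05), with a median of 1.18. Among all genes tested the shares called were 17.0% higher and 21.4% lower. C3, the central complement component, was called higher (adjusted p = 5.3e-04 by limma), with 62.2, 29.6 and 54.7 in controls, above background on 2 of 3, and 1681, 3123 and 294.9 in treated cultures. Hp, haptoglobin, rose by 2.87 ± 0.54, with treated signals of 633.0, 3211.4 and 209.3. Its controls, at 89.8, 118.9 and 103.0, were above background on 3 of 3 arrays. The controls of C3 and Hp lay under the filter level of 147.6, so both genes entered the test through their treated signals. Serping1, the C1 inhibitor, rose from 743.5 ± 81.5 to 5423 ± 1002 (2.86 ± 0.13), and Hpx, hemopexin, by 2.19 ± 0.10. Ttr, transthyretin, rose by 2.57 ± 0.18, but its groups overlapped. Its signals were 995.9, 1724.9 and 349.8 in controls and 7128.8, 12961.5 and 1347.7 with dexamethasone. Without the replicate block its adjusted p was 0.0256 by limma, and Serpina1 was no longer called (adjusted p = 0.0753). Without dexamethasone 2, in the fit without pairs, 4 of the list were called. The hepatocyte markers bright enough to be tested moved with this list. Of those on the array, Ttr, Serpina1, Alb and Fgb are also its members, and only Apoa1 is not. Of 5 on the array 3 were tested and all 3 rose, Apoa1, an apolipoprotein, from 201.2 ± 95.3 to 3441 ± 2545 (3.87 ± 0.24), and the summed signal was 1105 to 3374 in controls and 3489 to 22022 with dexamethasone. Alb, albumin, and Fgb were too dim to be tested. The limma fit with no filter called neither (adjusted p = 0.854 and 0.613). The part of these markers in the rise of the list was not tested.

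Acinar enzymes and granule cargo, with which lithostathine is secreted, were higher in 11 of 16 tested and lower in 0 by limma. The 11 include Prss3b, whose controls were above background on 1 of 3 arrays. At an unadjusted p under 0.05 the lower count was also 0, and the median was 0.82. Beside this, 17.0% of all genes tested were called higher and 21.4% lower. In the fit without pairs the median was 0.45 without dexamethasone 2 and 1.27 without dexamethasone 3. With quantile normalization 9 were higher and 2 lower, and with hybridization control scaling 10 and 1. Prss1, a trypsinogen, rose by 4.42 ± 0.11 and Ctrc, a chymotrypsin, by 2.82 ± 0.14, and Cela2a, an elastase, by 1.81 ± 0.10. No test compared the list with Reg1a. Among glucocorticoid-responsive genes 19 of 21 tested rose and 1 fell, beside the same 17.0% higher and 21.4% lower over all genes tested. The 19 include Tat, whose controls were above background on 0 of 3 arrays and which entered the test through its treated signals. The faller was the receptor gene Nr3c1 (-0.48 ± 0.13, adjusted p = 0.0157 by limma). A second Nr3c1 probe set did not pass (-0.47 ± 0.25, adjusted p = 0.175 by limma). On the brightest set the call was lost with 75th percentile centring (adjusted p = 0.0513) and without pair 1. In the fit without pairs it was lost without control 1 or control 3. Some genes stand on several of these lists, Cebpb, Lcn2 and Spink1 among them. Nfkbia and Mt2A, given above as risers of the pancreatitis list, are also on the glucocorticoid-responsive list. Extl3, proposed as a receptor for Reg proteins, was at 1073 ± 25.7 and 892.2 ± 109 (-0.27 ± 0.14, adjusted p = 0.150), but fell once arrays were scaled to the hybridization controls (-0.52, adjusted p = 0.0277). Its second probe set, at 201.7, 130.3 and 272.9 in controls and 99.1, 34.2 and 158.3 with dexamethasone, was too dim to be tested.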

How the data were processed

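Per the labels, RNA of each culture was hybridised to 1 array, and the deposited intensity is a MAS5 signal per probe set; the submitters' processing notes name GCOS and MAS5. Versions, settings and detection calls are not given in the sources used here. MAS5 subtracts background and mismatch signal, so low signals are noisy. Of 15923 probe sets, 57 controls were left out, and 12783 of the other 15866 had 1 gene symbol, 312 several and 2771 none in the platform annotation, updated by gene identifier. For gene lists a gene was its brightest one-symbol probe set.

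Signals were taken to log2 (4 values of 0 set to 0.1) and not normalized again. Probe sets at or above the 40th percentile of mean log2 signal (147.6) entered a limma 3.58.1 fit (R 4.3.3) with terms for treatment and for replicate number (the block), an intensity trend and Benjamini-Hochberg adjustment. The script was checked on simulated data. The series' design text calls the cultures pairs, and replicate numbers were taken as these pairs. Deviations of same-numbered arrays from their group means correlated at -0.0951, 0.112 and 0.211 (numbers 1 to 3), and control 2 correlated more with dexamethasone 1 (0.175) than with dexamethasone 2, so the data alone do not show the pairing. Nothing in the labels says whether the 3 experiments differed in batch.

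If all 3 arrays of a group were at background, the change was bounded by the mean of the higher of background and its own signal per array. Members, lists and motifs were chosen with earlier results of these data known. Named genes were the Reg probe sets, up to 5 risers and 5 fallers per list, a fixed set of pathway genes, and the 5 nearest profiles to each Reg gene tested. Tissue markers were read as sums. Reg protein sequences and platform probes were not analysed here. Alternatives are given in the closing section.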

Additional observations from a re-analysis of the deposited data

How the results depend on the processing

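Reg3b kept its direction in all 17 settings (-1.67 to -0.85) and its call in 12. The lost calls were the fit without replicate 2 and 4 fits without 1 array, where the changes were -1.08 without control 1, -1.20 without control 2, -1.05 without dexamethasone 2 and -0.85 without dexamethasone 3 (range over all arrays left out, with no pairing, -1.67 to -0.85) and from -1.56 to -0.95 over the pairs left out. Reg1a kept its direction in all 17 (-0.77 to -0.20) and was past the threshold with quantile normalization (-0.71), hybridization control scaling (-0.71), without replicate 1 (-0.77) and without dexamethasone 1 in the fit without pairs (-0.76). Over the pairs left out it ranged from -0.77 to -0.27, and over single arrays from -0.76 to -0.20. Without the replicate block the change of Reg3b was -1.19 and that of Reg1a -0.47, with no change of call. Reg3a (-0.29 to 0.11) and Reg3g (-0.24 to 0.14), run with no filter in every setting, a choice made after seeing the data, passed in none of 16, and their signs varied. Over all probe sets, 1512 rose and 2019 fell. With hybridization control scaling 718 rose and 3063 fell, so 19.0% of calls were higher against 42.8%, and the median change was -0.29 against -0.05; with 75th percentile centring 57.5% were higher. Leaving out a replicate pair gave 997 to 1253 higher, and leaving out any pair or array moved the counts to between 997 and 1419 higher and between 1374 and 2139 lower. The acute phase count of 7 ranged from 4 to 8 over the replicates left out. The causes were not tested. Signals near background limit Reg3a and Reg3g, and a signal ceiling for Reg1a was not tested.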
